A study of Mus musculus with 4 samples.

Results

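The genes described here are 55 mouse genes for enzymes and complexes that modify or remodel chromatin, and the measurement is the position of peaks of 5-hydroxymethylcytosine (5hmC), the oxidised form of 5-methylcytosine. They were 13 histone demethylases, 13 Polycomb genes, 8 histone methyltransferases, 5 histone acetyltransferases, 7 subunits of the SWI/SNF remodelling complex, 8 CHD remodellers and Arid5b, a DNA-binding ARID protein outside SWI/SNF. A peak belonged to a gene when the authors' list gave it that gene's symbol. They stand beside 21896 protein-coding genes in the reference table. The symbols occurred in 236 of the 56695 usable rows of the day 20 list and in 4 of the 1050 rows of the day 0 list.

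All libraries came from 1 mouse line, ATDC5, which can be driven from cartilage progenitors to chondrocytes in culture, and no animal was sampled. All cells were grown with serum and ascorbic acid. Chondroprogenitors were taken at day 0 (2 libraries). Chondrocytes were obtained by adding insulin, transferrin and selenite, and were taken at day 19 (1 library) and day 20 (1 library). A chemical capture kit pulled 5hmC-bearing fragments out of genomic DNA for sequencing. RNA levels were not analysed here, so the labelled stages could not be checked by marker genes. Each stage is represented by 1 list of peaks with a 10-fold enrichment, made from merged libraries, with no height, fold or p-value per peak. There was therefore no replicate spread, no test between stages was possible, and read depth is unknown. Counts below are descriptions of 2 lists. Day 0 peaks were narrow (median 134 bp) and day 20 peaks wide (median 591 bp), so the lists cannot be compared as amounts of 5hmC.

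Some chromatin genes act against each other. Methyltransferases and acetyltransferases add marks to histones, and demethylases remove methyl marks. Polycomb repressive complex 2 (PRC2) methylates histone H3 and represses genes, while Polycomb repressive complex 1 (PRC1) reads that mark through its CBX subunits and ubiquitylates histone H2A. SWI/SNF and CHD proteins use ATP to slide or evict nucleosomes. In the cartilage lineage, Arid5b is known to work with the demethylase Phf2 at targets of Sox9, and Prdm16 is known for fat and craniofacial development. 5hmC is made by TET enzymes and is known to lie mostly within gene bodies and enhancers rather than at CG-dense promoters.

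None of the promoter windows that could be examined for these genes carried a day 20 peak, and the sequences of 6 of them are printed to show what such windows hold. RefSeq promoter windows of GRCm38.p6, from 250 bases before to 50 bases after an annotated start, were on hand for 41 of the 55 genes, 58 windows in all. The 250 bases before the start are given 5′ to 3′ on the gene's strand with every CG, the dinucleotide that carries most cytosine methylation, in capitals. For each gene the window nearest to a day 20 peak was taken. Except for Suz12, the stretch printed lies inside the annotated span of the gene, not upstream of it. Kdm2b and Kdm3a also have windows nearer to the 5′ end of the gene. Arid1b and Kat6b were among the genes with the most peaks, Suz12 and Crebbp had none, Kdm2b had the nearest window to a peak of the 58, and Kdm3a had a window without CG.
Arid1b: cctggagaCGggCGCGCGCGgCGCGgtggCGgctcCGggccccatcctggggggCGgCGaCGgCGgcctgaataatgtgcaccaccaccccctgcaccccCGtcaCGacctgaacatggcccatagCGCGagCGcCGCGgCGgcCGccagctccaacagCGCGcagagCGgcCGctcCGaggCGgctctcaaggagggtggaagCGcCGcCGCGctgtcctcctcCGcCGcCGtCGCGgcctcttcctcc
Kat6b: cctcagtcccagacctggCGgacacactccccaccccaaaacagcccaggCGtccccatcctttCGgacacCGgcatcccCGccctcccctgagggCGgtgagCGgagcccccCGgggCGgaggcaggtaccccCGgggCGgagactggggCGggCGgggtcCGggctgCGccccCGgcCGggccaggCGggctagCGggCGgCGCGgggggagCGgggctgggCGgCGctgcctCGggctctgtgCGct
Kdm2b: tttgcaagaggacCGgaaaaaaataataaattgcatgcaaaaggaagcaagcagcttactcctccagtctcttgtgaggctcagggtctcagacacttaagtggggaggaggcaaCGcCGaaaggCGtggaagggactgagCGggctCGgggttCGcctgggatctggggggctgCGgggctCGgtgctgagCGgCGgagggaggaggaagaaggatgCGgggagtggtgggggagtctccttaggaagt
Suz12: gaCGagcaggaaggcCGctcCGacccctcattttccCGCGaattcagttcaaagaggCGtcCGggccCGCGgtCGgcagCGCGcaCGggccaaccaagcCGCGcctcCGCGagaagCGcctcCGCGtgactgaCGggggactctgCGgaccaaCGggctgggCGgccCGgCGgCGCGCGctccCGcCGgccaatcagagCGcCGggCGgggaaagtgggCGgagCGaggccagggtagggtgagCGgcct
Crebbp: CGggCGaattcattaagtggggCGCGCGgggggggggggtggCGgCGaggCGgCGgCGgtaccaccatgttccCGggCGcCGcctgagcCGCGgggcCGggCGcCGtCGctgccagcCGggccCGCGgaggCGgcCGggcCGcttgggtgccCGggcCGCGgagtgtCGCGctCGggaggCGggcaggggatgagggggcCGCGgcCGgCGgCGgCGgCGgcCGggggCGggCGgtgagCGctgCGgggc
Kdm3a: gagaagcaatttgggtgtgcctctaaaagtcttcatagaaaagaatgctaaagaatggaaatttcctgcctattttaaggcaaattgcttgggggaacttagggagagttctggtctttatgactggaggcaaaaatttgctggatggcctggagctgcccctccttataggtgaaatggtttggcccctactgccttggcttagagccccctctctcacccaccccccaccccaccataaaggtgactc

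These stretches lie on chromosome 17 at 4994824 to 4995073 (Arid1b, plus strand, 37 CG), chromosome 14 at 21499520 to 21499769 (Kat6b, plus, 27 CG), and chromosome 5 at 122988508 to 122988757 (Kdm2b, minus, 12 CG). The other three are on chromosome 11 at 79992856 to 79993105 (Suz12, plus, 37 CG), chromosome 16 at 4213405 to 4213654 (Crebbp, minus, 44 CG) and chromosome 6 at 71609140 to 71609389 (Kdm3a, minus, 0 CG). Their 300-base windows lay 5608 bp, 8659 bp, 351 bp, 63013 bp, 19960 bp and 467 bp from the nearest day 20 peak, in the order printed. Both a gene with 32 peaks and genes with none thus had CG-dense windows without a peak.

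Over all 32851 windows of the RefSeq table, from genes of every type, 4.7% overlapped a day 20 peak. Among windows of protein-coding genes it was 3.74%, and among the 58 windows of the chromatin genes 0. By gene, 5.25% of genes with a window had a day 20 peak over one, against 0 of the 41 chromatin genes. The chromatin windows were rich in CG, with a median of 26 per 300 bases (quartiles 17 and 33.75). The median was 7 over all windows and 13 over those of protein-coding genes. The letters CG, which read the same on both strands, occurred at least 1 time in 96.6% of the chromatin windows and in 94.6% of all windows. Of all windows with 0 to 9 CG, 5.96% overlapped a day 20 peak, against 2.38% of those with 20 to 29 and 1.82% of those with 30 or more. Of the 58 chromatin windows, 39 held 20 CG or more. Read against these rates and this number of windows, 0 of 58 is not a result particular to chromatin genes.

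Near the windows, chromatin genes were close to the genome-wide rate when windows of any CG content were pooled. A day 20 peak lay within 1 kb of 8 of the 58 windows (13.8%). The share was 13.9% of all windows and 13.3% of those of protein-coding genes. The 8 windows belonged to Kdm2b (351 and 943 bp), Kdm4a (464 bp), Kdm3a (467 bp), Arid1a (544 bp), Bmi1 (659 bp), Kdm1a (781 bp) and Jarid2 (787 bp). The median distance to a peak was 5.85 kb for chromatin windows and 12.0 kb for all windows. These figures were not matched for CG content. With 30 or more CG, the median was 9.43 kb for the 22 chromatin windows and 6.78 kb for all windows. Of these 22, 1 had a peak within 1 kb, against 19.03% of all such windows. The chromatin median was lower in the other CG groups. It was 9.27 against 15.98 kb with 0 to 9 CG (8 chromatin windows). With 10 to 19 (11 windows) it was 3.51 against 10.55 kb, and with 20 to 29 (17 windows) 1.33 against 9.74 kb. These counts are small, and some windows of the same gene overlap, as in Kdm2b and Kat6b.

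**Figure D1:**
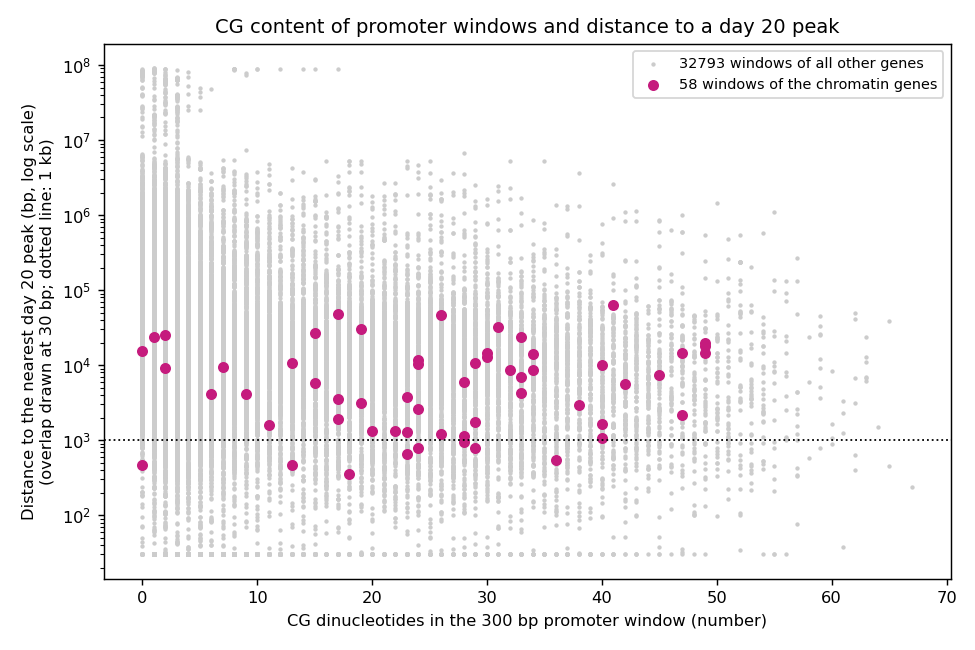
Each point is a 300 bp promoter window, with its number of CG dinucleotides on the x axis and the distance in bp to the nearest day 20 peak on a log y axis, overlap being drawn at 30 bp. The 58 windows of the chromatin genes all lie above the overlap level, 8 of them below the dotted 1 kb line, amid 32793 windows of other genes.

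By the authors' symbols 46 of the 55 chromatin genes had at least 1 day 20 peak (83.6%), against 39.7% of protein-coding genes counted by their current symbol. A pair of acetyltransferase genes was missed by symbol alone. The list gave Kat6a as Myst3 (4 peaks) and Kat6b as Myst4 (19 peaks), their older symbols, as the transcript accessions show. With accessions counted, 48 genes had a day 20 peak (87.3%, 259 peaks), against 43.8% of protein-coding genes, and these counts are used from here on. The members were named with results of these data known, and they are long genes, with a median of 77.8 kb against 17.1 kb. The share above the background is therefore only a description.

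Peaks were concentrated in a few genes. Of the 55, 7 had no peak, 13 had 1, 20 had 2 to 4 and 15 had 5 or more. The 8 genes with 10 or more peaks held 139 of the 259. They were Arid1b (32), Prdm16 (23), Kat6b (19), Jarid2 (17), Jmjd1c (14), Arid5b (13), Chd7 (11) and Kat2b (10). The median was 3 peaks per gene, against 0 over all protein-coding genes. The 3 genes with the most peaks, Arid1b, Prdm16 and Kat6b, held 28.6% of all.

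**Figure D2:**
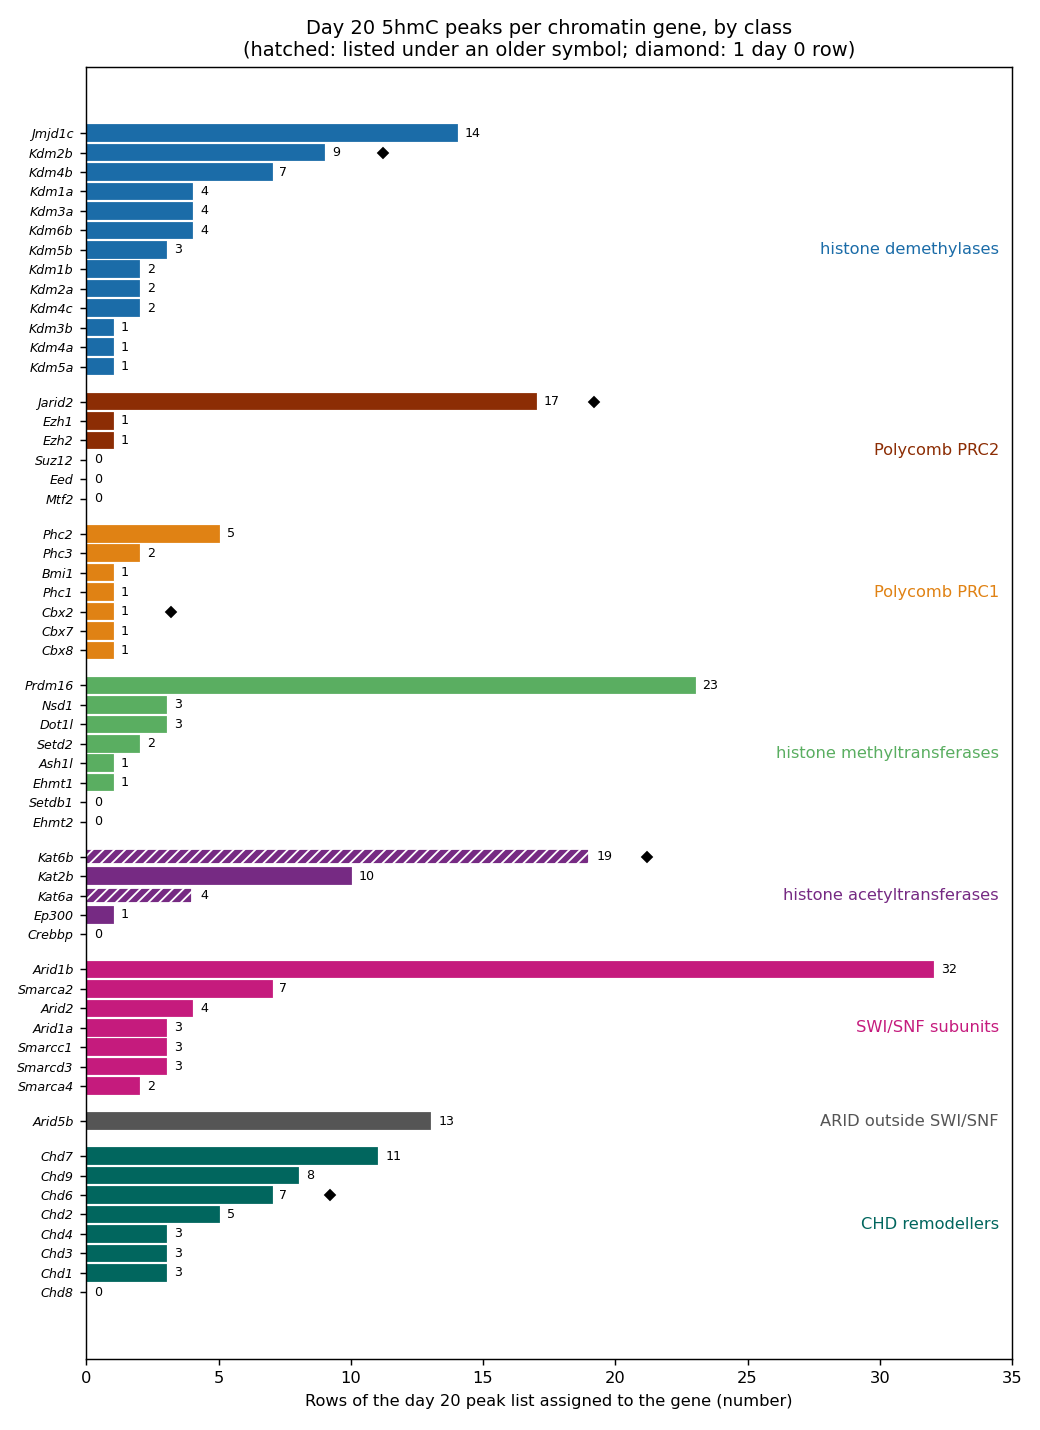
Horizontal bars give the number of day 20 peaks assigned to each of the 55 genes, grouped by class and with the number at the bar's end; hatched bars are genes listed under an older symbol and diamonds mark the 5 genes with 1 day 0 peak. Arid1b has the longest bar with 32, and Suz12, Eed, Mtf2, Setdb1, Ehmt2, Crebbp and Chd8 have none.

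The classes differed in the share of genes with a peak, but each holds few genes. All 13 demethylases, all 7 PRC1 genes and all 7 SWI/SNF subunits had a day 20 peak, as did 7 of 8 CHD genes, 4 of 5 acetyltransferases (2 of 5 by symbol alone), 6 of 8 methyltransferases and 3 of 6 PRC2 genes. PRC2 was lowest. By median peaks per gene the order was CHD and acetyltransferase genes with 4 each, demethylases and SWI/SNF with 3 each, methyltransferases with 1.5, PRC1 with 1 and PRC2 with 0.5. Pooled over each class, the density per 10 kb of gene length ran from 0.382 in methyltransferases to 0.605 in acetyltransferases, with 0.472 in PRC2 and 0.447 in PRC1, against 0.307 over all protein-coding genes. Single genes carried several of these values. Without Jarid2 the PRC2 density was 0.095, without Prdm16 that of the methyltransferases was 0.184, without Kat6b that of the acetyltransferases was 0.386, and without Arid1b that of SWI/SNF was 0.368. The median density per gene was 0.077 in PRC2 and 0.155 in methyltransferases, and lay between 0.386 (SWI/SNF) and 0.509 (PRC1) in the other classes with more than 1 gene. Median gene length was 108 kb in SWI/SNF, 106 kb in acetyltransferases, 97.3 kb in methyltransferases and 91.4 kb in CHD genes. It was 72.7 kb in demethylases, 42.3 kb in PRC2 and 22.5 kb in PRC1. The class shares and medians of peaks were not matched for length.

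The 88 other genes of the same classes are those left once the 55 were taken out, so the same choice shapes both sets. Of the 143 genes together, 105 had a day 20 peak by accession (73.4%). Of the 88, 57 did (64.8%, 154 peaks, median 1) and 44 by current symbol. Their median length was 31.5 kb. The share was 18 of 21 for other SWI/SNF subunits, 5 of 6 for other ARID genes, 8 of 12 for PRC1, 4 of 6 for PRC2, 15 of 23 for methyltransferases, 5 of 12 for demethylases, 1 of 6 for acetyltransferases and 1 of 2 for CHD genes. SWI/SNF thus had a high share in both sets. Of the other demethylases, 5 lie on the X or Y chromosome, and 2 of these 5 had a peak, against 3 of the 7 on autosomes. None of the 55 genes lies on X or Y.

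**Figure D3:**
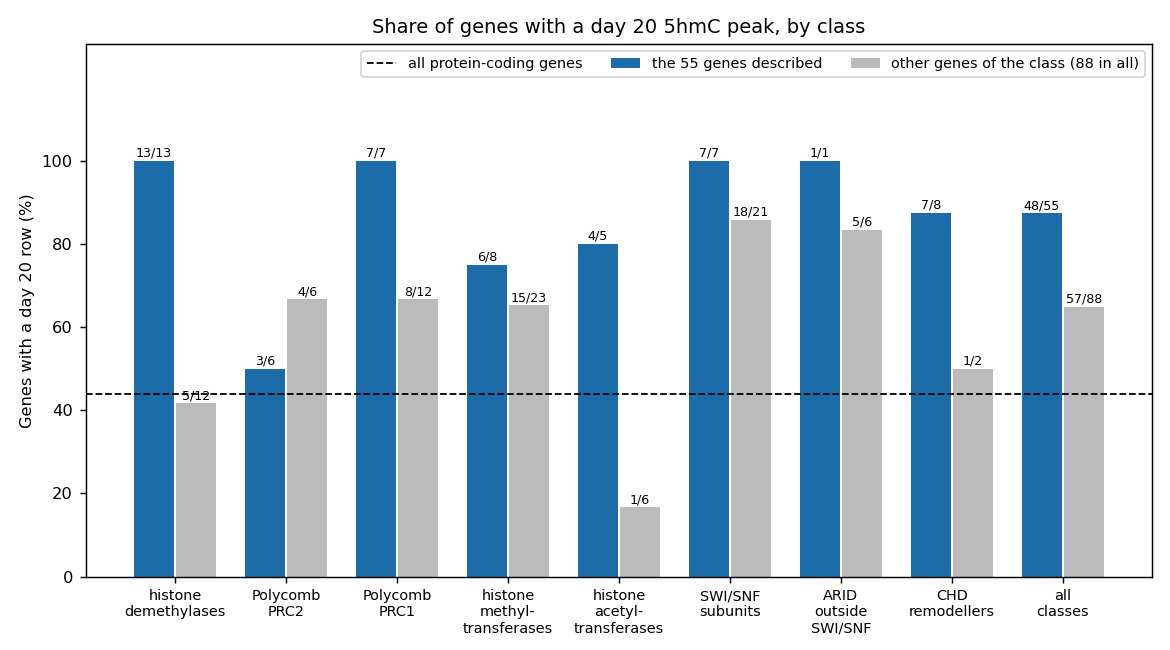
Bars give the percentage of genes with a day 20 peak in each class, blue for the 55 genes described and grey for the 88 other genes of the classes, with counts above the bars; the dashed line marks the 43.8% of all protein-coding genes. SWI/SNF stands high in both sets, while other demethylases (5 of 12) and acetyltransferases (1 of 6) stand below the dashed line.

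Gene length went with the number of peaks, and the chromatin genes spread widely around it. Protein-coding genes were divided into 10 equal groups by length. The longest group, above 108 kb, had a median of 5 peaks (quartiles 1 and 10) and 79.6% with a peak, and it held 18 chromatin genes with a median of 7.5 and 17 with a peak. Of the 18, 7 lay above the upper quartile: Jmjd1c, Jarid2, Prdm16, Kat6b, Arid1b, Arid5b and Chd7. Crebbp was the only one below the lower quartile. In the second longest group, of 57.1 to 108 kb, the 17 chromatin genes had the same median as all genes, 2 peaks, and 16 had a peak against 74.6%. The 10 other chromatin genes in the longest group had a median of 2.

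**Figure D4:**
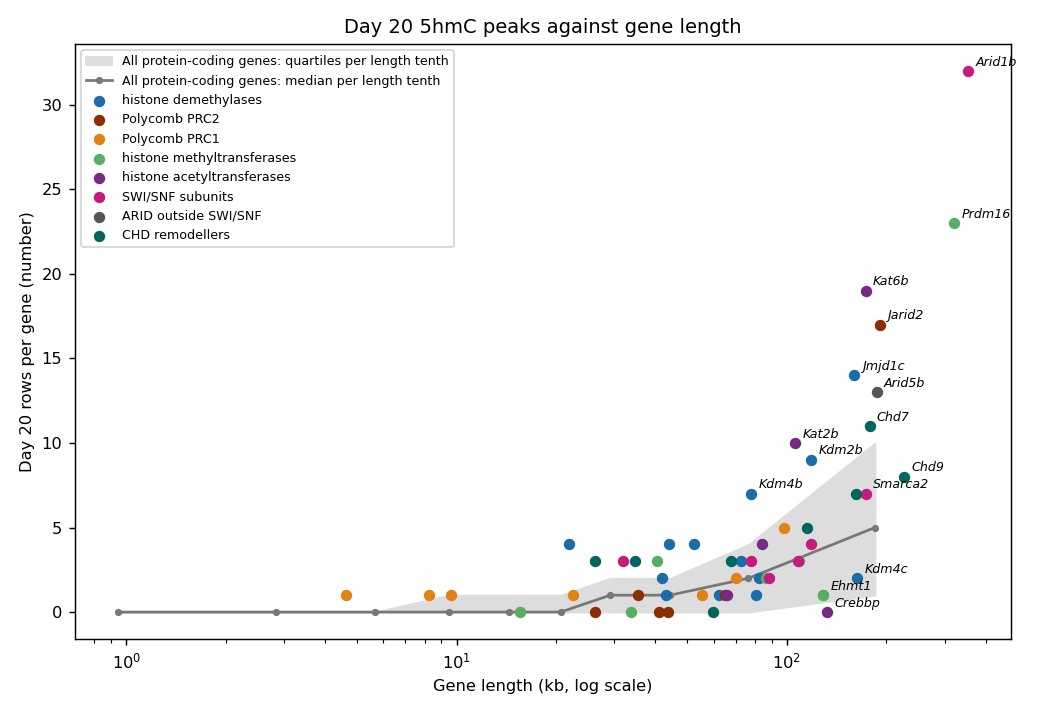
Points give day 20 peaks per gene against gene length in kb on a log axis, coloured by class; the grey line and band are the median and quartiles over all protein-coding genes in 10 length groups. Kat6b lies above the band, and Crebbp lies below it at 0 peaks in 133 kb. The band ends at 185 kb, the median length of the longest group, and Arid1b, Prdm16 and Jarid2 lie to the right of its end.

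Among the histone demethylases, Jmjd1c, a relative of the Kdm3 enzymes, had 14 assigned peaks over 160 kb on chromosome 10. By position its gene body held 17, since 2 more carried no symbol and 1 was assigned to Reep3. Kdm2b, which recruits a variant PRC1 to CG-rich DNA, had 9 peaks over 119 kb on chromosome 5. Its widest (122986792 to 122988107, 1316 bp) was the widest of the class and lay near the 5′ end of the gene. Kdm4b had 7 over 77.8 kb, while its relative Kdm4c had 2 over 163 kb and Kdm4a had 1. Kdm4c also lay in a region without peaks, with 0 in the 250 kb on either side, where the other genes of the class had 14 to 52.

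Kdm6b, which removes the methyl mark that PRC2 sets, was the densest of the demethylases. Its 4 peaks in 21.9 kb gave 1.83 per 10 kb and covered 15.0% of the gene length, the highest coverage of the 55 genes. Kdm1a, the LSD1 demethylase, and Kdm3a had 4 peaks each, and Kdm5b had 3. Kdm1b and Kdm2a had 2 each, and Kdm3b and Kdm5a had 1 each. The Kdm3b and Kdm5a peaks were narrow, at 277 and 379 bp, against a median of 540 bp in the class.

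With day 20 peaks of at least 500 bp only, 8 of the 13 demethylases had one. The other 5 demethylases, Kdm2a, Kdm3b, Kdm4a, Kdm4c and Kdm5a, had only narrower peaks.

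Of the other demethylase genes, Phf2, the partner of Arid5b, had 6 peaks, the widest 1683 bp. Hr, a demethylase of hair follicle biology, had 4 in 19.5 kb. Kdm6a on the X chromosome (119 kb) and its Y-linked relative Uty (161 kb) had none. Kdm6a removes the same mark as Kdm6b, and the pair of related genes thus had 0 and 4 peaks. Only Kdm6b is autosomal. Of the 7 other chromatin genes on X or Y, 2 had a peak, against 67.9% of the 81 on autosomes. The copy number of X and Y in the line was not tested.

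Among the 6 PRC2 genes described first, the peaks lay almost entirely in Jarid2, with 17 of 19. This DNA-binding cofactor had 17 peaks over 191 kb on chromosome 13 (44730774 to 44921643), of which 16 lay in the gene body and 1 lay 1037 bp before it. They were narrow, with a median of 402 bp (246 to 792 bp) against 627 bp over all chromatin genes, and none reached 1 kb. Of the core subunits, Ezh2, the main methyltransferase, had 1 peak of 318 bp in 65.0 kb, and Suz12 and Eed, which hold the complex together, had none in 41.0 and 26.3 kb. The accessory subunit Mtf2 had none either. Having no peak is common at these lengths. In the length group of Suz12 and Mtf2, 63.7% of all protein-coding genes and 6 of 8 chromatin genes had a peak. In that of Eed it was 54.7% and 4 of 6. Ezh1 had 1 peak of 1079 bp (101230535 to 101231613 on chromosome 11), 4072 bp before the gene, so its body held none.

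The 6 other PRC2 genes held 10 peaks, at a pooled density of 0.765 per 10 kb, against 0.472 in the 6 described above. Their median density per gene was 0.80, against 0.077. They are shorter, with a median length of 19.7 kb against 42.3 kb. They included Aebp2, found with Jarid2 in the same form of the complex, with 5 peaks in 56.0 kb. Rbbp4, a histone-binding subunit, had 2, and Rbbp7 on the X chromosome and the short gene Phf1 had none. The PRC2 genes with 5 peaks or more, Jarid2 and Aebp2, both encode accessory subunits. Mtf2 and Phf1 are accessory subunits too and had none. They are shorter, at 43.6 and 4.78 kb, against 191 kb for Jarid2 and 56.0 kb for Aebp2.

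The PRC1 genes had few peaks each. Phc2, of the polyhomeotic family that polymerises PRC1, had 5 over 98.2 kb, with the widest at 128698001 to 128699057 on chromosome 4 (1057 bp). Phc3 had 2, and Phc1, Bmi1, Cbx2, Cbx7 and Cbx8 had 1 each. The peaks of Phc1 and Cbx2 lay outside the gene, by 4354 and 1526 bp. Cbx7 held 3 peaks by position, of which the authors' list left 2 without a symbol, among them one of 1410 bp at 79957929 to 79959338 on chromosome 15. Cbx8 was the shortest of the 55 genes (4.61 kb), and its peak of 547 bp covered 11.9% of its length. Of the other PRC1 genes, Rybp had 4 and Pcgf5 had 3, and Pcgf6 had none.

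Among the methyltransferases, Prdm16 held 23 of the 33 peaks. It spans 321 kb on chromosome 4 (154316122 to 154637360), and its peaks were wide, with a median of 890 bp and 10 of 1 kb or more. The widest, at 154454016 to 154455756 (1741 bp), was the widest of all 259. The 250 kb on either side held 14 peaks, or 2.80 per 100 kb, against 7.16 in the gene. Of its 23 peaks, 15 lay in the 3′ part beyond the middle of the gene, and the 5′ end was bare over 52.7 kb between the first peak and the next.

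The other methyltransferases had 3 peaks or fewer each. Dot1l, which methylates the globular part of histone H3, had 3 peaks in 40.4 kb, the widest 1209 bp, and at 0.743 per 10 kb it was as dense as Prdm16 (0.716). Nsd1 had 3, one of them 7408 bp outside the gene and the farthest of any, and Setd2 had 2. Ash1l and Ehmt1 had 1 each in 129 kb, both narrow (320 and 342 bp), and the Ehmt1 peak sat at the 3′ end of the gene. Setdb1 and Ehmt2, both of which methylate histone H3 at repressed chromatin, had none, in 33.7 and 15.6 kb. In their length groups, 54.7% and 40.5% of all protein-coding genes had a peak. A pair of peaks lay within 5 kb of Ehmt2.

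Of the other methyltransferases, Smyd3 had 27 peaks, but spans 566 kb. Nsd3, listed as Whsc1l1, had 9 in 118 kb, which is above Nsd1. Kmt2a had none assigned, although 2 lay in its body, and Setdb2 had none.

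The acetyltransferases ranged from 19 peaks to none. Kat6b had 19 peaks in 173 kb on chromosome 14 (21499216 to 21672478), the highest density of the 55 genes above 50 kb (1.10 per 10 kb). Its relative Kat6a, which forms the same kind of complex, had 4 in 83.8 kb. Kat2b had 10, of which 9 lay in its 106 kb, while the flanking 250 kb on either side held 4 in all, or 0.80 per 100 kb against 8.49 in the gene.

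The general coactivators Ep300 and Crebbp stood at the other end. Ep300 had 1 peak of 807 bp (81600854 to 81601660 on chromosome 15) in 65.9 kb. Crebbp had none in 133 kb on chromosome 16 (4081334 to 4213957), and it was the longest of the 7 genes without a peak. Its flanks held 23 peaks. Of the other acetyltransferases, Kat7, listed as Myst2, had 5, and Hat1 and Kat14 had none.

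In SWI/SNF, Arid1b held 32 of the 54 peaks. It spans 353 kb on chromosome 17 (4994297 to 5347656), and its peaks were spread over the whole gene, with at most 8 in any 50 kb and a longest bare stretch of 23.8 kb. The widest was at 5105805 to 5107356 (1552 bp). Arid1a, which takes the same place in the complex, had 3 peaks in 77.8 kb, and Arid2, which belongs to the PBAF form, had 4 in 118 kb. Per 10 kb these values were 0.906, 0.386 and 0.339. The alternative ATPases Smarca2 and Smarca4 had 7 in 173 kb and 2 in 88.1 kb, or 0.404 and 0.227 per 10 kb. The Smarca2 peaks left a stretch of 74.3 kb bare.

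The remaining SWI/SNF genes had few peaks. The core subunit Smarcc1 had 3, and Smarcd3, a subunit known from heart and muscle, had 3 wide ones (774 to 1179 bp) in 31.8 kb. Its body held 5 by position. Other subunits had mostly a single peak, 11 of 21, with 4 in Dpf3 across 274 kb and 4 in Bicra, listed as Gltscr1. Bcl7c and Phf10 had none.

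Arid5b had 13 peaks in 187 kb on chromosome 10 (68092523 to 68279355), with a median width of 775 bp, and the widest at 68132268 to 68133793 (1526 bp). It had no day 0 peak. The other ARID genes outside SWI/SNF included Arid3b with 5, Arid5a with 4 in 16.3 kb and Arid3c with none.

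Of the CHD remodellers, Chd7, mutated in a human syndrome with craniofacial defects, had 11 peaks in 178 kb, the widest 1088 bp. Its close relatives Chd9 and Chd6 had 8 in 226 kb and 7 in 162 kb, and Chd8, the fourth of this subfamily, had none in 59.9 kb. The Chd6 peaks lay toward both ends of the gene and left 98.2 kb between bare, and those of Chd9 left 68.6 kb bare. Chd2 had 5, and Chd1 had 3. Chd3 and Chd4, the ATPases of the NuRD complex, had 3 each, of which 1 and 2 lay outside the gene. The pair beside Chd4 (125088389 to 125089232 and 125089332 to 125090741 on chromosome 6) lay 5239 bp and more before its start, and the second was the widest of the class at 1410 bp. Of the other CHD genes, Chd5 had 3 and Chd1l had none.

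**Figure D5:**
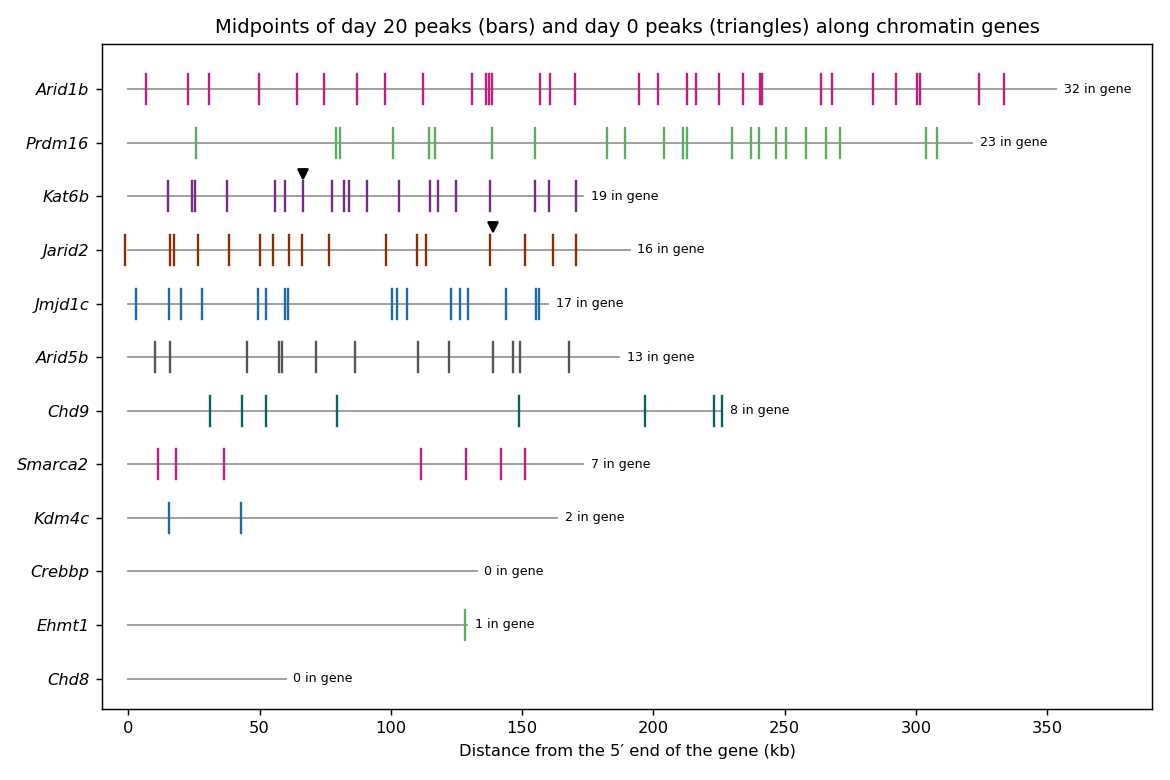
Each grey line is a gene drawn from its 5′ end in kb, with coloured bars at the midpoints of day 20 peaks, black triangles at day 0 peaks, and the number of day 20 peaks in the gene body at the right. The 32 peaks of Arid1b run along the whole gene, Smarca2 and Chd9 have long bare stretches, and Crebbp and Chd8 have no peak.

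Day 20 peaks were spread along the gene bodies. In the 41 genes with a known strand, 198 assigned peaks lay in the body, and 5 successive equal stretches of gene length held 17.7%, 24.2%, 15.7%, 21.2% and 21.2% of them. Over all protein-coding genes with a strand the shares were 22.2%, 20.0%, 19.2%, 19.2% and 19.4%. Of the 259 peaks, 17 lay outside their gene, by a median of 3296 bp, and all 11 of these with a known strand lay before the start. Among all protein-coding genes 80.4% of such outside peaks did. Peaks per kb were more frequent in the gene body than in the 250 kb on either side in 27 of the 55 genes (49.1%), against 29% of all protein-coding genes. Length moved with this share. In the longest length group it was 12 of 18 chromatin genes against 50% of all genes, and in the second longest 6 of 17 against 44.3%. Peak width was also ordinary, with a median of 627 bp against 601 bp over all protein-coding genes and 14.3% of 1 kb or more against 13.8%.

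At day 0, 4 of the 55 genes had a peak by symbol (7.27%), against 1.62% of protein-coding genes, and 5 by accession (9.09%) against 1.81%. Each had 1. Of these 5 genes, 4 (all but Cbx2) belonged to the longest length group, where 7.90% of all genes had a day 0 peak and 4 of 18 chromatin genes did. They were spread over 5 classes: Kdm2b, Jarid2, Cbx2, Kat6b and Chd6. Methyltransferases, SWI/SNF genes and Arid5b had none. None of the 88 other chromatin genes had one.

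Of the 5 day 0 peaks, 3 lay inside a wider day 20 peak of the same gene. In Kdm2b the day 0 peak (122979405 to 122979557, 153 bp) lay within a day 20 peak of 1045 bp. In Cbx2 the day 0 peak (119021193 to 119021340 on chromosome 11, 148 bp) lay within one of 655 bp, outside the gene, in the noncoding gene Gm35829. In Kat6b the day 0 peak (21565719 to 21565953, 235 bp) lay within one of 1105 bp. The Jarid2 day 0 peak (44869625 to 44869734, 110 bp) was 883 bp from the nearest day 20 peak, and that of Chd6 (161110674 to 161110802 on chromosome 2, 129 bp), 1588 bp before the gene, was 2944 bp away. Across the list, 520 of 1050 day 0 peaks (49.5%) overlapped a day 20 peak. The count of 3 of 5 is too small to be set apart from that share.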

How the data were processed

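Peak positions of 5hmC were measured in 4 ATDC5 libraries, 2 per stage, and deposited as 1 list per stage. Per the file headers, each list holds peaks with a 10-fold enrichment in merged samples. The sources used here do not say what the fold compares, or if the day 19 library was part of the day 20 list. The submitters' processing notes list FastQC, cutadapt, BWA, MACS 1.4.2 and GRCm38, without settings. The deposited values used were start and end in bp, a gene symbol and a transcript accession. Of the day 20 rows, 3 had no readable end and were left out.

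Peaks were counted per gene by the authors' symbol and, to catch older symbols, by accession (99.6% of day 20 rows with a symbol matched). Gene lengths came from RefSeq GRCm38.p6, without exons. Overlap needed 1 bp. No test was run. Members and gene lists were chosen with earlier results of these data known. All 55 genes are named. Of the other chromatin genes, up to 2 per class with the most peaks and up to 2 of the longest without one are named. A gene that this rule names is not reported here. Single peaks other than the widest per class and those of day 0, and the 6 promoter sequences, were chosen after their values were seen. Counting steps recovered all 200 planted genes in made-up data. Python 3.11.15, numpy 2.4.6, pandas 2.3.3 and matplotlib 3.10.9 were used.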

Additional observations from a re-analysis of the deposited data

How the results depend on the processing

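Alternatives covered peaks in the gene body, gene bodies with 5 kb on both sides, day 20 peaks of at least 500 bp, merging within 1 kb and, chosen after seeing the data, older symbols by accession. The number of the 55 genes with a day 20 peak, 46 by symbol, stayed within 1.5 times of that count under each of these, as did the 236 peaks, the 44 other chromatin genes and the 4 genes with a day 0 peak where the alternative applied. The acetyltransferase count of 2 became 4 with gene bodies, with 5 kb added and with older symbols; the last adds Kat6a and Kat6b. The demethylase count of 13 fell to 8 with peaks of at least 500 bp, by which fewer peaks are counted. The 0 promoter windows with a peak became 8 within 1 kb. The background share of 39.7% became 18.8% over genes of any type. Leaving out a library was not possible, since each list was merged before deposit. No paired analysis was possible because each stage is 1 merged list. Depth could not be weighed, as no counts were used.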
